A study of Mus musculus with 8 samples.

Results

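The genes described here belong to aldosterone-regulated sodium and potassium transport in the mouse large intestine. They are 9 genes: Fxyd4, Atp1b1, Scnn1a, Scnn1b, Scnn1g, Atp12a, Sgk1, Hsd11b2 and Nr3c2. They were taken from 16309 genes that the array names through a transcript accession, and 8 of the 9 had a probe. No probe carried an accession of Nr3c2, the gene of the mineralocorticoid receptor, so its level was not analysed here. The members were selected on their rectum minus colon differences in these arrays, so that comparison is given as a description without a test, and tests are confined to genotype, housing and their dependence on tissue.

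RNA was measured in mucosa of the rectum, up to 7 mm from the anus, and of the middle colon, 2.5 to 3.5 cm from the ileocecum. Mice lacking interleukin 18 (IL18ko) were set against wild-type mice (WT), and isolated mice (stress) against mice left with their brothers (control). The 8 groups were rectum IL18ko stress, rectum IL18ko control, rectum WT stress and rectum WT control, and the same 4 in colon. A group consisted of a single array with the pooled RNA of 5 mice and had no replicate, so the order of groups within a tissue has no error. All mice were brothers caged together from weaning to an age of 10 to 12 weeks, and the strain is not given in the sources used here. For isolation the design text states 8 days and the treatment protocol 16 days, and which is right could not be settled. The labels do not say that rectum and colon pools came from the same mice. How the Il18 gene was deleted is not given either.

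Aldosterone acts in the distal colon, as in the collecting duct of the kidney, through the mineralocorticoid receptor, and makes the epithelium take up sodium and secrete potassium. Sodium enters through the epithelial sodium channel, built from the subunits encoded by Scnn1a, Scnn1b and Scnn1g, and leaves through the sodium pump, whose activity small FXYD proteins adjust. The enzyme encoded by Hsd11b2 inactivates corticosterone and so keeps that more abundant steroid off the receptor, while the kinase encoded by Sgk1 keeps the channel at the cell surface.

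Sequences upstream of the start of transcription are shown for Sgk1, the member that was lower in rectum, and for 3 members that were far higher there, so that the letters of a steroid response element can be seen where they occur and where they do not. RefSeq (GRCm38.p6) gave upstream windows for 6 of the 9 members, 11 windows in all, 6 of them for Sgk1. Capitals mark the full element (AGAACA, any 3 bases, then TGTTCT), its single arm AGAACA and the GC box GGGCGG, each searched on both strands, so that TGTTCT and CCGCCC are the arm and the GC box read on the other strand. Each window holds the 250 bases before a start, read 5′ to 3′ along the gene. The Sgk1 window is the fifth of its starts, chr10:21993640-21993889 on the plus strand, and Fxyd4 lies at chr6:117937336-117937585 on the minus strand. Scnn1g lies at chr7:121734229-121734478 and Scnn1b at chr7:121864788-121865037, both on the plus strand, with their windows starting 130559 bases apart.
Sgk1: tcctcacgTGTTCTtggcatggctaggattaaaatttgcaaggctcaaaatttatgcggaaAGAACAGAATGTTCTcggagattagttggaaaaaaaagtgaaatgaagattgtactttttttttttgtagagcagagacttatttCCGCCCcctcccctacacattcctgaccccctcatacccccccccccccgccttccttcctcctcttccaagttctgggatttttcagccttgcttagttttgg
Fxyd4: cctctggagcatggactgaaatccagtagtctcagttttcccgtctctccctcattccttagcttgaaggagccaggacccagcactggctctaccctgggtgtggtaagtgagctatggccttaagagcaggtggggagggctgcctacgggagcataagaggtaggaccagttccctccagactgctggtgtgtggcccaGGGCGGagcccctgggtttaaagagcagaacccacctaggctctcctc
Scnn1g: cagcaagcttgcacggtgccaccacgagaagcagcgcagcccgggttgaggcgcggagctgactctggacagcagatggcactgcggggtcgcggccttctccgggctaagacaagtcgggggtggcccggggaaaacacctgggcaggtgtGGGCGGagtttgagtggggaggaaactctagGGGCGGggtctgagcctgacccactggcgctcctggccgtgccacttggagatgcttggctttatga
Scnn1b: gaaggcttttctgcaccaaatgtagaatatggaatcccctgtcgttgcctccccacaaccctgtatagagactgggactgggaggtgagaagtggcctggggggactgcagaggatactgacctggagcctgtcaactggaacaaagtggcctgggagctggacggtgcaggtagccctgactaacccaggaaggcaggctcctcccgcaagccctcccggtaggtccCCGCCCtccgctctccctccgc

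The full element was present in 3 of 32851 upstream windows of the mouse genome (0.0091%), and the printed Sgk1 window is one of them, with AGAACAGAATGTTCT beginning 189 bases before the start. The single arm, which the full element contains on each strand, was present in 16.1% of all windows, in 3 of the 6 Sgk1 windows and in 0 of the 5 other members with a window. The GC box was present in 32.7% of all windows and in the printed windows of all 4 genes. A match is a description of letters and no sign of binding, and a missing match says only that these letters are not in this window.

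Levels below are log2 signals relative to the 75th percentile of the array, which lay between 605 and 859 intensity units, and only values of 1 probe are set against each other. Between 62.2% and 66.4% of the 43379 spots of an array were well above background, 0 were saturated, and all 8 measured members were well above background on all 8 arrays. Without replicate arrays, the number of arrays limits the precision. All 13 markers of colon surface epithelium on the list used (Epcam, Cdx2, Car1 and others) were above background on every array, with a summed level of 10.5 to 10.7 in rectum and 10.6 to 10.8 in colon. Singly, limma called 3 of the 13 higher and 3 lower in rectum, beside 14% and 13.5% of all tested probes. The transcription factor gene Cdx2 was furthest apart, at -3.62 (limma adjusted p = 1.74e-05). Skeletal muscle markers had a summed level of 2.80 to 7.33 in rectum, highest in IL18ko control, and 1.80 to 2.59 in colon. Markers of squamous epithelium stood at 1.76 to 2.64 in rectum and 0.98 to 1.54 in colon, with Ivl and Dsg3 not above background on any array, and enteric neuron and glia markers at 2.06 to 2.74 in rectum and 3.94 to 4.21 in colon. Adipocyte markers stood at 3.50 to 5.23 in rectum and 4.88 to 5.91 in colon, and smooth muscle markers at 8.82 to 9.35 in rectum and 8.95 to 9.56 in colon. The part of these cell types in the tissue differences below was not tested. In pooled tissue, fewer cells of a type and less RNA per cell cannot be told apart, and since every rectum array was on one slide and every colon array on the other, tissue and slide cannot be told apart either. Position on the slide, per the array barcode, was the same on both slides: WT control 1, WT stress 2, IL18ko control 3 and IL18ko stress 4. Differences by genotype or stress therefore cannot be told apart from position.

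The rectum minus colon comparison asks where along the large intestine these genes are transcribed. Of the 8 measured members, 7 were higher in rectum than in colon in all 4 mouse groups and 1, Sgk1, was lower in all 4. The sizes fell apart into 4 members more than 4-fold higher in rectum (Fxyd4, Scnn1g, Atp12a and Scnn1b) and 4 under 2-fold in either direction. The rectum arrays lay wholly above the colon arrays for 5 members, which held for 16.9% of all tested probes, and wholly below them for Sgk1 (14.3% of probes). The tissue difference chose the members, so nothing is read from these counts.

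Fxyd4 encodes a small membrane protein, first known as corticosteroid hormone-induced factor, that binds the sodium pump. Its levels were 6.68 in IL18ko stress, 6.76 in IL18ko control, 7.22 in WT stress and 6.75 in WT control rectum. In colon they were -3.69 in IL18ko stress, -3.57 in IL18ko control, -3.31 in WT stress and -4.20 in WT control. The tissues were separated by 9.99, while arrays of 1 tissue differed by at most 0.54 in rectum and 0.90 in colon. Rectum exceeded colon by 10.55 ± 0.28 (log2, SD, n = 4 mouse groups), a 1497-fold difference in normalised signal and the largest rise among 12718 genes. On the linear scale the probe read 79600 to 90300 intensity units in rectum and 46.6 to 76.7 in colon, so the fold rests on dim colon signals. With a model-based background correction (normexp) the difference was 9.29. In the authors' deposited table the rectum ratios to WT control colon lay between 1992 and 2618.

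Atp1b1, the beta subunit that carries the sodium pump to the membrane, differed far less. It stood at 5.82, 5.89, 6.16 and 5.72 in rectum of IL18ko stress, IL18ko control, WT stress and WT control mice, against 5.63, 5.61, 5.34 and 5.34 in the same order in colon. The tissues did not overlap, with a gap of 0.09, and the difference was 0.42 ± 0.28 (log2, SD, n = 4 mouse groups), or 1.34-fold. The WT stress pair gave the largest of the 4 differences, 0.82, and the other mouse groups lay between 0.19 and 0.38.

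The channel subunits differed between rectum and colon to unlike degrees. Scnn1g, the gamma subunit, stood at 0.79 in IL18ko stress, 0.68 in IL18ko control, 0.09 in WT stress and 0.68 in WT control rectum. Its colon levels were -5.21 in IL18ko stress, -5.94 in IL18ko control, -6.16 in WT stress and -4.72 in WT control. The tissues were far apart on every array, and the colon arrays scattered over 1.44. The difference was 6.07 ± 0.51 (log2, SD, n = 4 mouse groups), 67.0-fold in normalised signal, with pairs from 5.40 to 6.61. The colon signals were dim, 10.6 to 32.6 intensity units against 642 to 1340 in rectum, and with the model-based background correction the difference shrank to 3.89.

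Scnn1b, the beta subunit, had levels of -0.10 in IL18ko stress, -0.44 in IL18ko control, -0.63 in WT stress and -0.45 in WT control rectum. In colon they were -2.64 in IL18ko stress, -2.49 in IL18ko control, -2.22 in WT stress and -2.50 in WT control. All rectum arrays lay above all colon arrays, by at least 1.59. The mean difference was 2.06 ± 0.39 (log2, SD, n = 4 mouse groups), or 4.16-fold, and 1.63 with the model-based background correction.

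Scnn1a, the alpha subunit without which the channel hardly conducts, differed least between the tissues among the 3 subunits. Its brighter probe stood at 4.25, 4.16, 4.31 and 3.74 in rectum of IL18ko stress, IL18ko control, WT stress and WT control mice, against 3.89, 3.52, 3.42 and 3.12 in colon. WT control rectum lay below IL18ko stress colon, so the tissues overlapped, although rectum was higher within each mouse group. The difference was 0.63 ± 0.22 (log2, SD, n = 4 mouse groups), or 1.54-fold. A second, dimmer probe of the gene gave 0.55 ± 0.19 over the same 4 mouse groups.

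**Figure D1:**
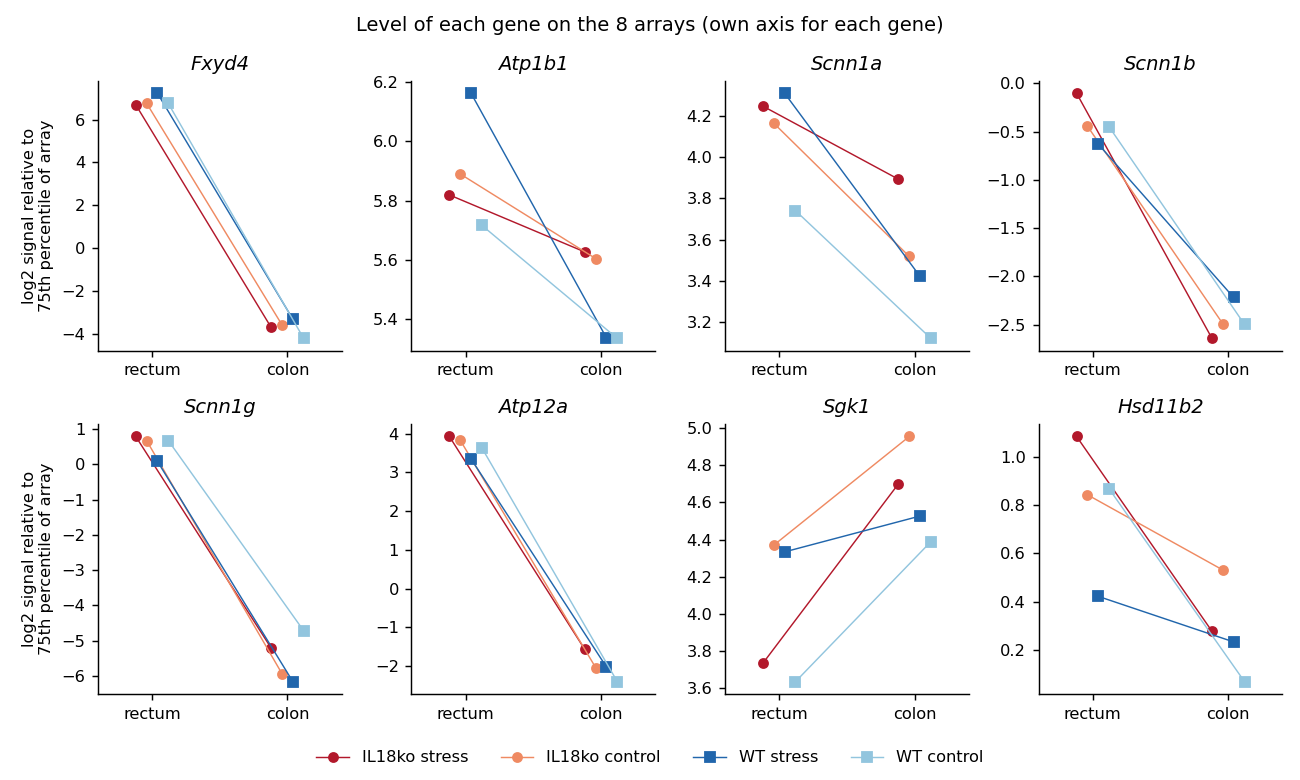
Level of each measured member on the 8 arrays, as log2 signal relative to the 75th percentile of the array, with rectum left and colon right and lines joining arrays of 1 mouse group; each gene has its own vertical axis. Fxyd4, Scnn1g, Atp12a and Scnn1b separate the tissues widely, Scnn1a and Hsd11b2 overlap, and Sgk1 slopes the other way.

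Atp12a encodes the catalytic subunit of the colonic proton-potassium pump, which takes potassium up from the gut lumen. Its levels were 3.93 in IL18ko stress, 3.83 in IL18ko control, 3.35 in WT stress and 3.63 in WT control rectum. In colon they were -1.57 in IL18ko stress, -2.04 in IL18ko control, -2.03 in WT stress and -2.41 in WT control. No array of either tissue came within 4.92 of the other tissue. The difference was 5.70 ± 0.31 (log2, SD, n = 4 mouse groups), a 52.0-fold difference, with pairs from 5.38 to 6.04. The genes of the stomach's own proton-potassium pump, Atp4a and Atp4b, were on the array and 0 of 2 passed the filter on dim probes.

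Sgk1, the kinase that aldosterone and glucocorticoids both induce, ran the other way. It stood at 3.73 in IL18ko stress, 4.37 in IL18ko control, 4.33 in WT stress and 3.63 in WT control rectum. Its colon levels were 4.70 in IL18ko stress, 4.96 in IL18ko control, 4.53 in WT stress and 4.39 in WT control. The highest rectum and the lowest colon level were only 0.02 apart, which is far less than the range of 0.74 within rectum. The difference was -0.63 ± 0.33 (log2, SD, n = 4 mouse groups), or 1.54-fold lower in rectum, and it was smallest in WT stress mice (-0.19) and largest in IL18ko stress mice (-0.97).

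Hsd11b2, the enzyme that guards the receptor from corticosterone, was at 1.08, 0.84, 0.42 and 0.87 in rectum of IL18ko stress, IL18ko control, WT stress and WT control mice, against 0.28, 0.53, 0.23 and 0.07 in colon. WT stress rectum lay below IL18ko control colon, so the tissues overlapped. The difference was 0.53 ± 0.32 (log2, SD, n = 4 mouse groups), or 1.44-fold.

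**Figure D2:**
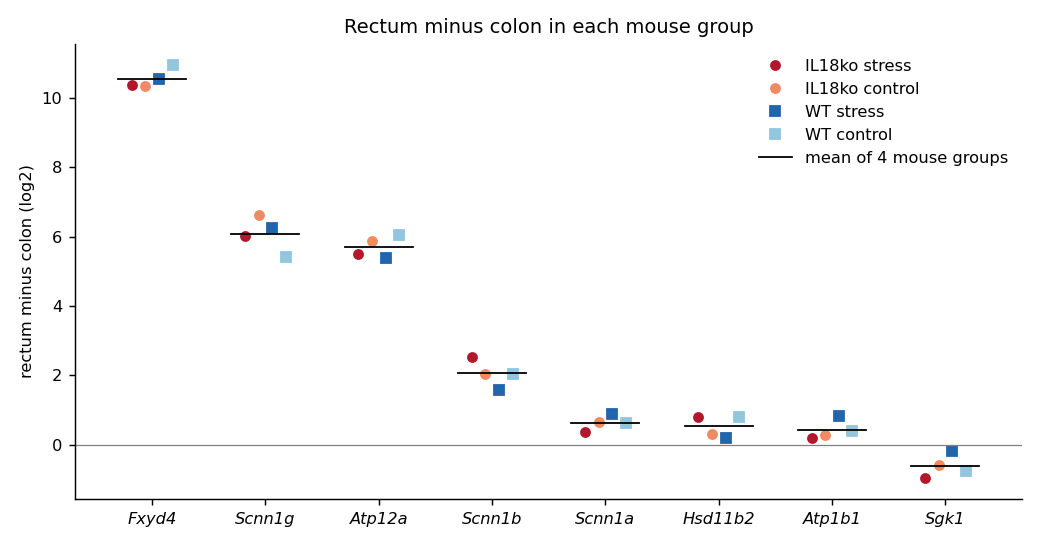
Rectum minus colon difference (log2) of each measured member in each of the 4 mouse groups, with a line at their mean. Fxyd4 averages 10.55, Scnn1g 6.07, Atp12a 5.70 and Scnn1b 2.06, Scnn1a, Hsd11b2 and Atp1b1 lie between 0.42 and 0.63, and Sgk1 lies below 0.

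Leaving out any mouse group kept the direction of all 8 differences, with Fxyd4 between 10.41 and 10.62, Scnn1g between 5.88 and 6.29, Scnn1b between 1.90 and 2.21, and Sgk1 between -0.77 and -0.51.

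Genes whose levels followed a member most closely over the 8 arrays were listed by Pearson's r among the 12717 other tested genes, as a description. These r values rest mainly on the tissue split, which is also the split between slides, and they ignore how large a difference is. For Fxyd4 the closest were Ms4a10 (r = 0.998), Gpr83, Manba and Fkbp1b (r = 0.997 each), whose own rectum minus colon differences were 4.35, 6.67, 0.72 and 1.34. Among the members, Atp12a came nearest to Fxyd4 (r = 0.995, rank 30), followed by Scnn1b (0.984), Scnn1g (0.980), Atp1b1 (0.823), Scnn1a (0.795) and Hsd11b2 (0.781), with Sgk1 at -0.73. For Scnn1g the closest were Serpina9, Gk, Fam3a and G6pc2 (r = 0.994 to 0.996), and for Scnn1b they were Plp2, Ly6i, Aldh1l1 and Sh3d21 (r = 0.996 to 0.998). Hsd11b2, whose tissue ranges overlapped, was followed most closely by Vac14, Pmm1, 2310033P09Rik and Gstt3 (r = 0.980 to 0.991).

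The other genes of the pathway were read from 8 lists with 81 genes, 72 of them on the array and 61 tested. Between rectum and colon, limma called 11 of the 61 higher and 13 lower in rectum, and 37 did not pass; over all probes tested, 27.5% were called, 14% higher and 13.5% lower. The counts moved with the arrays used: without the WT control pair 6 were higher and 11 lower, and without the WT stress pair 16 and 16. The 11 and 13 include Pdzk1 and Kcne2, which met the filter on dim probes only through the tissue where each was bright. Kcnmb2, among the 11, also depended on its rectum arrays for the filter, with 4 rectum but only 2 colon arrays above background. Nothing is read from those calls. The median difference of the 61 genes was -0.06, beside 0.05 over all genes tested.

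Sodium pump genes and FXYD regulators mostly did not pass. Of 8 tested genes of the sodium pump list, 0 were called higher and 2 lower in rectum, Fxyd3 (-1.08 ± 0.11, SE, limma adjusted p = 7.82e-04) and Fxyd6 (-1.02 ± 0.12, adjusted p = 0.00124). Both encode relatives of Fxyd4, which differed in the opposite direction. A second, dimmer Fxyd6 probe gave -1.11 and did not pass (limma adjusted p = 0.0573).

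Among 12 potassium channel genes, 3 were higher, 5 lower and 4 did not pass. Higher in rectum were Kcnmb2, a beta subunit of the large-conductance calcium-activated channel (1.22 ± 0.24, above background on 2 of 4 colon arrays), the acid-sensitive channel gene Kcnk5 (0.69 ± 0.13) and Kcnq1, known for basolateral potassium exit in colon crypts (0.39 ± 0.10, limma adjusted p = 0.0324). A second, dimmer Kcnk5 probe gave 0.74 and did not pass (limma adjusted p = 0.0902). Lower were the potassium leak channel gene Kcnk6 (-1.56 ± 0.10), Kcnma1, the pore of the large-conductance channel known for potassium secretion in colon (-1.05 ± 0.17), and the accessory subunit Kcne2. Kcne2 was not well above background on any rectum array and at least 53.6-fold lower there, a bound set from the dimmest signals that count as above background. It passed the filter on dim probes through its colon arrays alone, so no p is given for it.

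Of 10 exchanger and cotransporter genes, 2 were higher, 1 lower and 7 did not pass. Among those higher, Pdzk1, a scaffold protein for transporters, was at least 3.12-fold higher in rectum, since it was not well above background on any colon array. It passed the filter on dim probes through its rectum arrays alone. Kinases and ubiquitin ligases that act on the channel gave 0 higher, 3 lower and 9 not passing: Sgk3 (-1.45 ± 0.19) and Sgk2 (-0.66 ± 0.12), relatives of Sgk1, and the kinase gene Wnk4 (-0.70 ± 0.15). The ligase gene Nedd4l, whose product removes the channel from the surface, was at -0.19 and did not pass (adjusted p = 0.342).

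Among 8 channel-activating proteases and their inhibitors, the protease gene Tmprss2 (0.88 ± 0.14) and the inhibitor gene Spint2 (0.72 ± 0.14) were higher and 6 did not pass, among them Prss8, the best known channel-activating protease, at -0.44 (limma adjusted p = 0.114). A second Tmprss2 probe gave 0.77 and passed. Of 9 steroid receptor, enzyme and steroid-responsive genes, 4 were higher and 1 lower. The rises were in the endothelin gene Edn1 (2.39 ± 0.22, limma adjusted p = 5.15e-04), Ndrg2, an early target of aldosterone in rat (1.35 ± 0.16), the clock gene Per1 (0.78 ± 0.13) and Ptges, and the fall was in Rasd1 (-1.46 ± 0.12), which glucocorticoids induce. The glucocorticoid receptor gene Nr3c1 (-0.33) and the glucocorticoid-induced gene Tsc22d3 (-0.14) did not pass. Of the related acid-sensing channels, Asic2 fell by 1.39 and Asic1 did not pass.

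**Figure D3:**
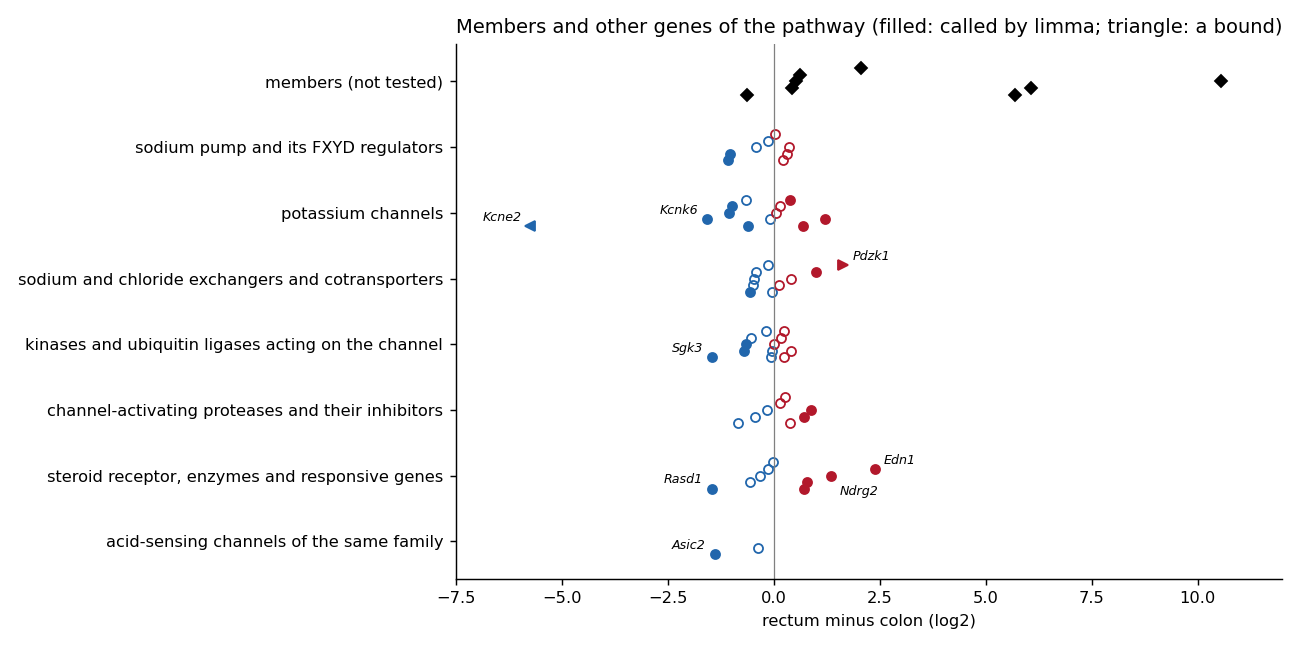
Rectum minus colon difference (log2) of the 8 measured members, as black diamonds that were not tested, and of the 61 other tested pathway genes by list. Filled circles passed limma, open circles did not, and triangles stand at the bound for Kcne2 and Pdzk1. Other pathway genes lie on both sides of 0, 11 called higher and 13 lower.

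The genotype comparison asks whether these genes depend on interleukin 18, with tissues and housing averaged. One of the 8 members passed the test, Atp12a, which was higher in IL18ko mice; over all probes, 11.5% were called, 6.06% higher and 5.45% lower. In each of the 4 comparisons of 1 IL18ko with 1 WT array Atp12a was higher, by 0.58 in stress rectum, 0.20 in control rectum, 0.45 in stress colon and 0.36 in control colon. The limma estimate was 0.40 ± 0.11 (log2, SE, adjusted p = 0.0288). The call depends on the fit. With the 8 arrays as independent samples (0.122% of probes called) the limma adjusted p was 0.161. It was 0.173 without a trend of the variance over the level and 0.0874 with arrays centred on their median. Over 7 alternatives it ranged from 0.00951 to 0.173. With the arrays independent and each left out in turn, it ran from 0.104 to 0.456, so Atp12a never passed. The estimate then ran from 0.29 (without WT stress rectum) to 0.51 (without WT control rectum).

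Scnn1a differed by 0.31 ± 0.11 between IL18ko and WT mice (limma adjusted p = 0.0740) and was higher in 3 of 4 comparisons. Its second probe gave 0.43. It passed with quantile normalization (0.38, adjusted p = 0.0340) and in the authors' deposited table of ratios (0.31, adjusted p = 0.0230). Hsd11b2 differed by 0.29 ± 0.11 (adjusted p = 0.0953), higher in 3 of 4 comparisons, and did not pass under any of the 7 alternatives. Sgk1 was at 0.22 (adjusted p = 0.388), Scnn1g at 0.11 (0.806), Atp1b1 at 0.10 (0.629), Scnn1b at 0.03 (0.907) and Fxyd4 at -0.07 (0.790), none past the threshold. For Scnn1g the 4 comparisons ran from -1.22 in control colon to 0.95 in stress colon, the widest spread among the members.

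**Figure D4:**
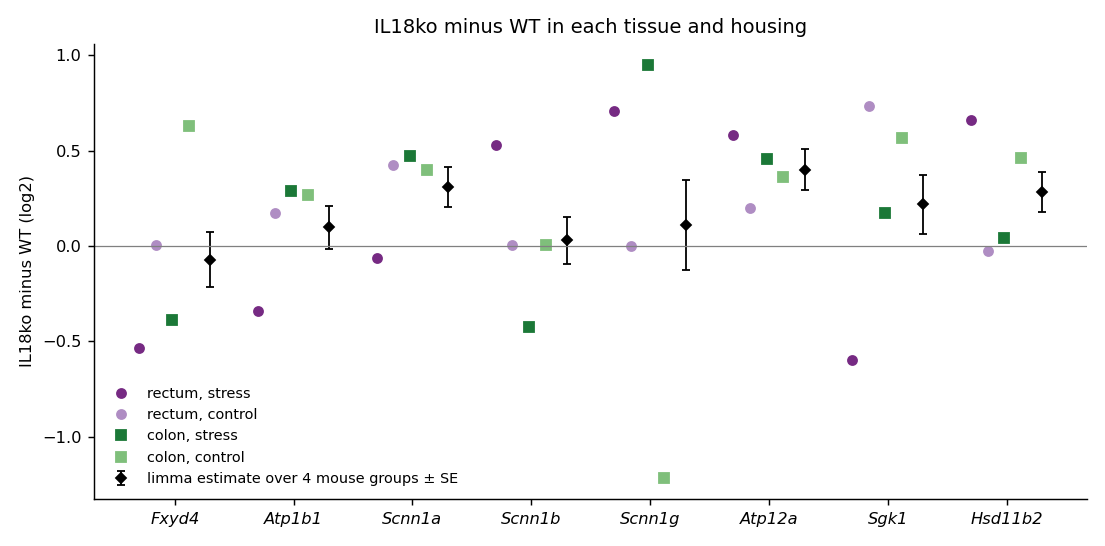
IL18ko minus WT difference (log2) of each measured member in the 2 tissues and 2 kinds of housing, with the limma estimate and its SE as a diamond. Atp12a is the only member with all 4 points above 0, from 0.20 to 0.58, and Scnn1g spreads from -1.22 to 0.95.

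Among the other pathway genes 11 of 61 were called by genotype, 9 higher and 2 lower in IL18ko mice. Over all probes, 11.5% were called, 6.06% higher and 5.45% lower. Among those higher were Fxyd6 (1.20 ± 0.12, limma adjusted p = 4.05e-05), the channel subunit gene Kcnmb1 (0.75), the protease inhibitor gene Serpine2 (0.74), the potassium channel gene Kcnj10 (0.68), the pump regulator gene Fxyd1 (0.61), the ubiquitin protease gene Usp2 (0.48), the potassium-chloride cotransporter gene Slc12a4 (0.44) and the kinase gene Wnk1 (0.37). Lower were the protease gene Tmprss4 (-0.79 ± 0.11, adjusted p = 8.68e-04) and the potassium channel subunit gene Kcne3 (-0.43 ± 0.11, adjusted p = 0.0238). The dimmer Wnk1 probes gave 0.184 and 0.180 and did not pass (limma adjusted p = 0.374 and 0.439). Second probes of Kcne3 (-0.45) and Fxyd6 passed. With the 8 arrays as independent samples only Fxyd6 passed (limma adjusted p = 0.0220), beside 0.122% of all probes. Without the variance trend 0 of 61 did, beside 18 of 26265 probes. For 8 of the 11 genes the largest of the 4 differences between 1 IL18ko and 1 WT array was the one in stress rectum, and for 8 all 4 had the same sign. The 11 genes were called on the mean of these same differences, and no share over all probes was taken. Nothing is therefore read from these counts. Kcnmb1 differed by 1.79 in stress rectum, 0.19 in control rectum, 0.82 in stress colon and 0.19 in control colon. Wnk1 differed by 0.91, 0.35, 0.07 and 0.13 in the same order, and Slc12a4 by 1.05, 0.47, 0.28 and -0.03. Without the WT stress rectum array, and with the other arrays as independent samples, limma called 4 of the 11 (Fxyd6, Kcnj10, Kcne3 and Tmprss4), and Kcnmb1, Wnk1 and Slc12a4 stood at 0.41, 0.20 and 0.26. Over all probes, 3597 of 26265 were called in that setting. Fxyd6, at which a second probe gave 1.09, lies on chromosome 9, as does Il18 itself. The chromosomes of the other called genes were not looked up, and a link between position and these differences was not tested.

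Markers of other cell types moved with genotype as well. Limma called 8 of 8 adipocyte markers, 4 of 8 smooth muscle markers, 3 of 7 tested enteric neuron and glia markers, 5 of 12 skeletal muscle markers and 2 of 5 tested squamous epithelium markers (Krt5 and Col17a1) higher in IL18ko mice. Of all probes tested, 6.06% were called higher. Lep, among the adipocyte markers, was not well above background on the rectum WT stress, rectum WT control and colon WT stress arrays. It met the filter on dim probes through the IL18ko arrays, so nothing is read from its call. Col17a1 was not well above background on any colon array, and its estimate averages over both tissues. Summed adipocyte levels were 4.91 to 5.91 in IL18ko and 3.50 to 5.91 in WT arrays, smooth muscle levels were 9.09 to 9.56 in IL18ko and 8.82 to 9.16 in WT arrays, and squamous levels were 0.98 to 2.64 in IL18ko and 1.17 to 1.99 in WT arrays. Of 13 markers of colon surface epithelium 1 was called higher, Cdx2 (1.37). The part of these cell types in the genotype differences of the pathway was not tested.

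The stress comparison asks whether isolation alters these genes. By limma 0 of 8 members and 0 of 61 other pathway genes passed, beside 0.0876% of all probes (23 called); at an unadjusted p under 0.05 there were 1 and 7. Scnn1a had the largest stress minus control estimate, 0.33 ± 0.11 (log2, SE, limma adjusted p = 0.341), and its brighter probe was higher under stress in 4 of 4 comparisons, by 0.08 in IL18ko rectum, 0.37 in IL18ko colon, 0.57 in WT rectum and 0.30 in WT colon. The second probe did not share this: its differences were 0.19 in IL18ko rectum, 0.01 in IL18ko colon, -0.20 in WT rectum and 0.11 in WT colon, a mean of 0.03, and the mean of both probes gave 0.18 (limma adjusted p = 0.627). With the 8 arrays as independent samples (0% of probes called) and also without the variance trend, limma called 0 members. In both fits 1 member was under an unadjusted 0.05, again with no share over all probes taken. Fxyd4 was at 0.29 (limma adjusted p = 0.542), Scnn1g at -0.30 (0.721), Atp12a at 0.16, Atp1b1 at 0.10, Scnn1b at 0.07, Hsd11b2 at -0.07 and Sgk1 at -0.01, and their signs were mixed over the 4 comparisons.

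The effects of genotype and of stress were also tested for a difference between rectum and colon. For the members 0 of 8 passed in either test (limma adjusted p of 0.99997 or above, 0 at an unadjusted p under 0.05). Over all probes 0.426% were called for genotype and 0.19% for stress. These fits have 1 residual degree of freedom, and their SEs came wholly from variance shared across probes. Members had SEs of 0.37 to 0.49 (log2), so differences of about that size could not pass.

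Stress went with opposite signs in the 2 genotypes for 3 of the 8 members, in both tissues, which held for 7.31% of all tested probes. The difference between genotypes was tested with limma over the 8 arrays as independent samples, since the tissue means leave no residual degree of freedom for it. Its p-values do not measure spread between mouse groups, because rectum and colon of a mouse group stand in as replicates. By this test 0 of 8 members passed (adjusted p rounding to 1 for each), beside 0% of all probes. At an unadjusted p under 0.05 there were 3 members, the same 3, and 1.25% of all probes. Fxyd4 changed by -0.07 in IL18ko rectum and -0.12 in IL18ko colon under stress, against 0.47 in WT rectum and 0.90 in WT colon. Sgk1 showed the same signs, -0.64 in IL18ko rectum and -0.26 in IL18ko colon, against 0.70 in WT rectum and 0.14 in WT colon. Scnn1g had the reverse signs, 0.12 in IL18ko rectum and 0.73 in IL18ko colon, against -0.59 in WT rectum and -1.44 in WT colon. The Scnn1g values in colon rest on the dim signals given above.

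**Figure D5:**
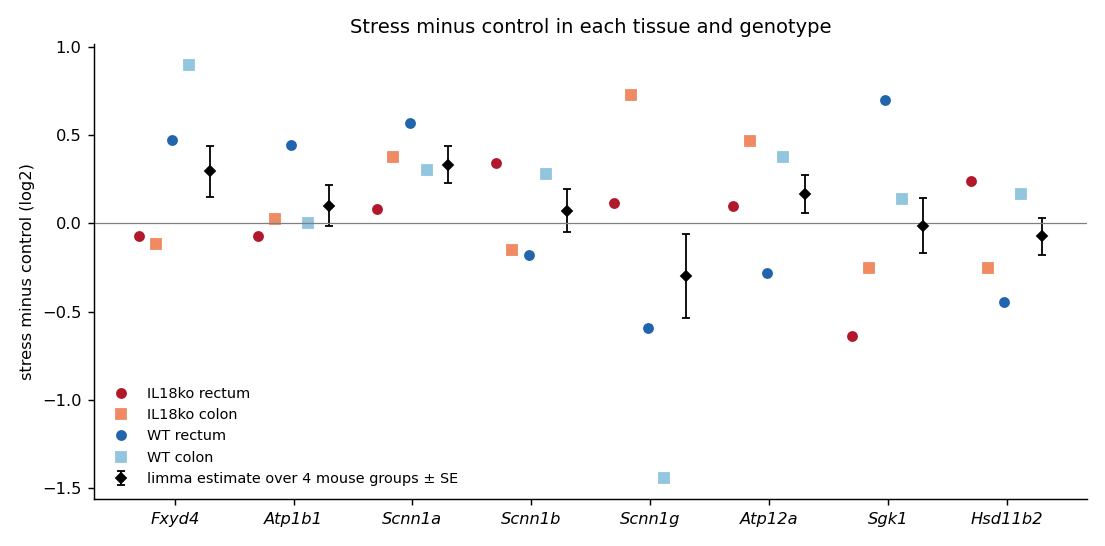
Stress minus control difference (log2) of each measured member in each tissue and genotype, with the limma estimate and its SE as a diamond. The brighter probe of Scnn1a, plotted here, has all 4 points above 0, from 0.08 to 0.57, while its second probe was at -0.20 in WT rectum; Fxyd4, Sgk1 and Scnn1g have IL18ko points on one side of 0 and WT points on the other.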

How the data were processed

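Only processed data were used. The spot intensity, background-corrected on a linear scale, came from Feature Extraction 9.5.1.1, per the file headers. Per the labels, the deposited table holds each feature's ratio to the WT control colon array; against scanner ratios in log2 its r was 0.995 to 0.999 (18330 features). The scaling the authors applied is not given in the sources used here.

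Outlier spots were dropped, the rest averaged per probe (40963 probes), and log2 intensities set relative to the 75th percentile of each array. Probes were named by transcript accession through RefSeq (22857 probes, 16309 genes), and the probe brightest on average stood for its gene. Tested were probes well above background on 4 or more of the 8 arrays (26265 probes, 12718 genes), and all 8 members with a probe passed.

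Tests used limma with the variance trended on mean level, Benjamini-Hochberg adjustment over all probes and a threshold of 0.05. Tissue was fitted to the 4 rectum minus colon differences, genotype and stress to the 4 tissue means (1 residual degree of freedom, so SEs come mostly from variance shared across probes), and dependence on tissue to the 4 differences again. P-values treat the mouse groups as replicates; each is 1 pool. The pairing of rectum with colon pools is assumed. The bound for a gene not above background is the bright tissue's mean against the higher, per array, of its own signal and the lowest signal well above background. Members, lists and tests were chosen with earlier results of these data known. All members were named, with the up to 3 largest rises and falls called in each list and every gene called by genotype or stress; genes not passing, and Ptges, were picked once values had been seen. Some genes that this rule names are not reported here. The genotype by stress test was added after seeing the data, and it treats the arrays, not the mouse groups, as replicates. Alternatives tried were quantile normalization, median centring, normexp (offset 50), the deposited ratios, other filters, no trend, other designs, the mean of a gene's probes and leaving out arrays.

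The fits were tested on simulated data. Software was Python 3.11.15 (pandas 2.3.3, numpy 2.4.6, matplotlib 3.10.9) and limma 3.58.1 in R 4.3.3.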

Additional observations from a re-analysis of the deposited data

Results flagged for a closer look

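For 3 members the change under stress had one sign in IL18ko mice and the other in WT mice, in rectum and in colon alike. Tested with limma over the 8 arrays as independent samples, the difference passed for 0 of 8 members (adjusted p rounding to 1 for each). Averaged over tissues, the stress effect in IL18ko minus that in WT mice was -0.78 ± 0.26 for Fxyd4, -0.86 ± 0.28 for Sgk1 and 1.44 ± 0.41 for Scnn1g (log2, SE), with unadjusted p of 0.0227, 0.0179 and 0.0112 from that fit. That fit takes rectum and colon of a mouse group as replicates, so its SE and p do not measure spread between mouse groups. The 3 genes were also picked for their opposite signs. A larger size was seen in 4.41% of tested probes for Fxyd4, 3.38% for Sgk1 and 0.921% for Scnn1g. Sgk1 and Scnn1g kept opposite signs under all 4 other scalings, with Scnn1g at 0.53 after normexp, and Fxyd4 under 3 of them but not in the deposited ratios, where its IL18ko rectum difference was 0.05.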

How the results depend on the processing

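The direction of the 8 rectum minus colon differences held under all 5 alternatives of scaling, background and probe and without each mouse group. The counts of calls did not hold as well, and the cause was not tested. Tissue calls over all probes ranged from 3505 (without the WT control pair; 3789 without the IL18ko control pair) to 10737 (without the WT stress pair), beside 7219. Genotype calls were 3023, but 1879 with median centring (590 higher and 1289 lower, beside 1591 and 1432), 5 without a filter, 18 without the variance trend, 32 with 8 arrays as independent and no replicate block, and 5326 when mouse group entered as a random block (estimated correlation -0.47). With the arrays independent and each left out in turn, they ran from 6 to 3597, the highest without WT stress rectum. Members called by genotype, 1 in the report, were 2 with quantile normalization and in the deposited ratios, and 0 with median centring, without a filter, without the trend, with independent arrays (no pairing) and with the mean of all probes. Other pathway genes called by genotype, 11 in the report, were 7 with quantile normalization, 7 with median centring, 0 without the trend and 1 with independent arrays (0 to 9 with each left out, the highest without WT stress rectum). Stress calls, 23 in the report, were 4 (quantile), 2 (median), 47 (normexp), 180 (deposited ratios), 87 (above background on all 8 arrays) and 0 without a filter, without the trend, with the random block and with independent arrays, where leaving out each array in turn again gave 0. Calls by tissue, 112 for genotype and 50 for stress, were 30 and 8 in the deposited ratios, 409 and 252 without a filter, 46 and 11 above background on all arrays, 199 and 93 without the trend, and 0 and 0 without the block. Signs turned for the genotype effect of Fxyd4 with quantile normalization (0.049) and of Scnn1b with median centring (-0.045), for the stress effect of Sgk1 in the deposited ratios (0.0026), and for the stress effect of Scnn1b in IL18ko minus WT with quantile normalization (-0.0086) and median centring (-0.019). Dim colon signals limit the size for Fxyd4 and Scnn1g. Without replicates within a group, no value has an error of its own, and genotype and stress rest on 1 residual degree of freedom.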
